A study of Mus musculus with 6 samples.

Results

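The genes described here are 41 genes of the endoplasmic reticulum (ER) that fold secretory proteins, degrade misfolded ones or signal ER stress. They were taken by symbol, all 41 were found among the 23337 gene symbols measured, and 40 of them reached a mean of at least 10 normalized counts over the 6 libraries, as did 13175 genes in all. The symbols came from a named list and from no measured value, but the list was drawn up with earlier results on these libraries known. The cells were sorted dopaminergic neurons from the SNc (substantia nigra pars compacta) of adult C57BL/6 mice, and poly(A) RNA was sequenced. Every mouse carried Sox6-FSF-Cre, Th-2A-Flpo and RC-Frepe, alleles in which Flpo recombinase is driven by the gene for tyrosine hydroxylase, Cre by Sox6, and a reporter turns on mCherry after Flpo alone and GFP after both. The Sox6+ group held 3 libraries of GFP-sorted neurons, and the Sox6- group held 3 libraries of mCherry-sorted neurons. The libraries of both groups are numbered 103, 825 and 1211, and values are given in that order. A recombinase reporter records past as well as present expression, and the labels do not say whether each library is a separate animal. The p-values therefore reflect only how far these particular samples spread, which may be technical.

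Proteins that enter the ER are bound by the Hsp70 chaperone BiP (Hspa5) with its J-domain and nucleotide exchange partners, by the sugar-binding chaperones calnexin and calreticulin, and by protein disulfide isomerases. Proteins that do not fold are recognized by lectins, passed through a membrane complex of derlins, SEL1L and the ubiquitin ligase HRD1 (Syvn1), pulled out by the ATPase VCP and degraded by the proteasome, a route called ER-associated degradation (ERAD). The unfolded protein response (UPR) adjusts this machinery through the sensors IRE1 alpha (Ern1), PERK (Eif2ak3) and ATF6. Dopamine neurons carry a large secretory and synaptic protein load, and ER stress has long been studied in them in models of Parkinson disease.

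The 6 libraries held 10397924 to 12952768 reads in genes. Sox6 lay at 840.5, 461.2 and 389.0 in Sox6+ libraries against 103.6, 18.1 and 36.2 in Sox6- libraries. All 8 dopaminergic markers had reads in every library, and their summed level was 102301.4, 199075.0 and 172673.4 in Sox6+ libraries against 42108.7, 128272.6 and 37578.8 in Sox6- libraries. The summed level of 8 GABAergic markers ran the other way, at 9111.5, 774.3 and 2439.6 in Sox6+ libraries against 18147.0, 5223.6 and 13816.0 in Sox6- libraries. Sox6+ library 825 stood apart: its 12 macrophage and microglia markers summed to 28663.3, where the other 5 libraries had 18.1 to 77.9. Lyz2 made up 26494.1 of that sum. Tyrobp, Cd68, Ptprc, Mrc1 and Csf1r were also highest in that library. Aif1, C1qa and C1qb were at 0 there, and Cx3cr1, C1qc and P2ry12 at 2.3, 2.3 and 26.2. Its 10 oligodendrocyte markers summed to 2106.6 against 263.9 to 392.3, with Mbp at 1943.8. In bulk samples like these, fewer cells of a type and less RNA per cell cannot be told apart.

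Of the 40 tested members, 1 was higher and 1 was lower in Sox6+ neurons. Derl3, a derlin of the ERAD membrane complex, rose 7.49-fold, and Rcn1, a calcium-binding protein of the ER lumen, fell to a mean of 485.8 ± 63.2 normalized counts in Sox6+ neurons, where Sox6- neurons had 1326.0 ± 320.6 (SD, n = 3 each). That is 2 of 40 members where 0.304% of all tested genes passed the same threshold, an adjusted p of 0.05 in limma, a linear model that pools the spread across genes. Differences are on the scale of log2(normalized count + 1), Sox6+ minus Sox6-. Sox6 itself, the gene that drives the Cre, differed by 3.665 (standard error 0.597, adjusted p = 0.0528, limma). It did not pass the threshold either, so a gene that did not pass may still differ. The members' median difference was -0.10, beside -0.02 over all tested genes, with 17 positive and 23 negative. Most differences were small. The difference was below 0.5 in size for 31 of 40 (77.5%), as for 64.9% of all tested genes, and the 95% confidence interval lay within a 2-fold change in either direction for 30 of 40 (75.0%), as for 43.6% of all tested genes. Their spread between replicates was also smaller, with a median SD of 0.21 on the log2 scale against 0.41 over all tested genes.

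**Figure D1:**
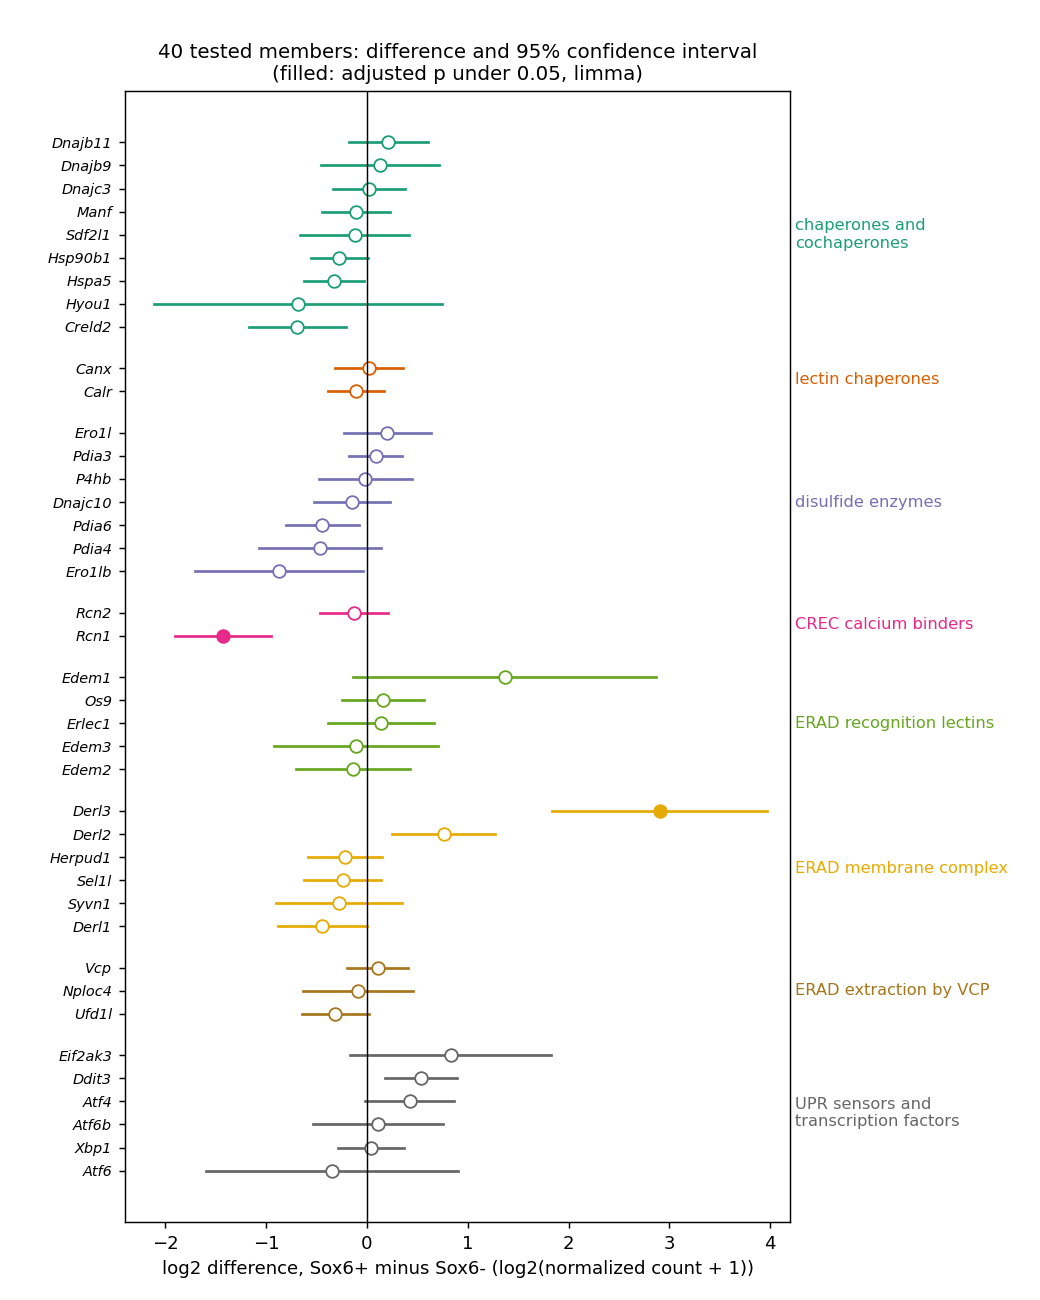
Points show the log2 difference of Sox6+ minus Sox6- neurons for the 40 tested members, grouped by role on the vertical axis, with 95% confidence intervals from limma as lines (3 libraries per group). Only Derl3 at 2.90 and Rcn1 at -1.43 are filled, the mark of an adjusted p under 0.05, and most other points lie within 0.5 of 0.

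Derl3 was the member that differed most. Derlins are multispanning membrane proteins that help move misfolded proteins out of the ER, and Derl3 is the family member known from secretory cells and from induction by ER stress. It had 233.8, 223.2 and 251.4 normalized counts in Sox6+ libraries and 30.7, 55.4 and 16.7 in Sox6- libraries. The Sox6+ values lay close together and far above all Sox6- values, among which library 825 was the highest. On the log2 scale Derl3 differed by 2.90 (standard error 0.475, 95% confidence interval 1.84 to 3.97, adjusted p = 0.0486, limma). In reads, 705 were counted in the 3 Sox6+ libraries together and 105 in the 3 Sox6- libraries together.

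The call for Derl3 sat at the threshold, and its direction held in every setting tried. Over the 21 alternative settings the difference ran from 2.44 to 3.36 and 7 settings called it. The edgeR quasi-likelihood test on recovered reads gave an adjusted p of 0.103, and it called 6 of all 13175 tested genes. Leaving out any single library other than Sox6- library 825 ended the call. The adjusted p then lay between 0.0507 without Sox6+ library 103 and 0.205 without Sox6+ library 1211 (limma). Those 2 fits called 162 and 12 genes in all, where the fit on all libraries called 40. In the authors' deposited table, made with DESeq2, Derl3 had an adjusted p of 8.75e-06. That table called 2.83% of its genes with an adjusted p, and of the 41 members it called Derl3 and Rcn1. For Derl3, and for each gene below whose groups do not overlap, an exact permutation test (two-sided) gave p = 0.1, which is the lowest value that 3 libraries against 3 allow.

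Plasma cells are secretory cells in which Derl3 is known, and markers of B cells and plasma cells were therefore read in the same libraries. Of the 8 found in the table, 7, 3 and 5 were at 0 in Sox6+ libraries 103, 825 and 1211, and their summed level was 34.5, 530.6 and 73.9 there against 24.9, 42.3 and 28.8 in Sox6- libraries. Derl3 was as high in Sox6+ libraries 103 and 1211 as in library 825, where these and the macrophage markers were highest in sum. Without Sox6+ library 825 the difference was 2.94, with an adjusted p of 0.0967 (limma). The dopaminergic markers were higher in sum in Sox6+ library 825 than in library 103, at near-equal Derl3. In Sox6- neurons the order of the libraries for Derl3, with 825 highest and 1211 lowest, was also that of the dopaminergic markers, and whether the makeup of the libraries had a part in the difference was not tested.

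The gene for Derl3 is at chr10:75893413-75895941, plus strand (GRCm38, GENCODE M21), with no other annotated gene overlapping it on that strand. Its RefSeq promoter (GRCm38.p6) is shown because it holds an ER stress response element (ERSE), the motif through which ATF6 and XBP1 are known to induce ER chaperone genes. The motif searched was CCAAT, then 9 bases of any kind, then CCACG, on both strands, and the match is in capitals. The 250 bases before the start are chr10:75893148-75893397, plus strand. Read on this strand the motif is reversed, with CGTGG first and ATTGG last.
Derl3: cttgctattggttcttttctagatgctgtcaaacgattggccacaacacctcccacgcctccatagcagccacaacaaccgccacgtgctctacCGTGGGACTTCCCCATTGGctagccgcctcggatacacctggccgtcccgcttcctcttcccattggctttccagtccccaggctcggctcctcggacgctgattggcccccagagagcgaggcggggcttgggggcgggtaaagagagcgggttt

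Neither of the other derlins passed the test, and they lay on opposite sides of 0. Derl2 had 599.8, 537.5 and 417.7 normalized counts in Sox6+ libraries and 267.7, 311.2 and 330.2 in Sox6- libraries. The groups did not overlap, with all Sox6+ values higher, and the log2 difference of 0.76 (95% confidence interval 0.25 to 1.27) did not pass (adjusted p = 0.241, limma). Derl1 lay the other way, at 683.7, 545.4 and 690.3 in Sox6+ libraries against 725.3, 900.3 and 987.7 in Sox6- libraries. Its groups did not overlap either, with a log2 difference of -0.44 (adjusted p = 0.437, limma). Per kb of annotated exon, the level was 118.5 for Derl3, 64.4 for Derl2 and 192.2 for Derl1 in Sox6+ neurons, against 17.2 for Derl3, 37.6 for Derl2 and 261.7 for Derl1 in Sox6- neurons. On this measure Derl3 was second among the derlins in Sox6+ neurons and last in Sox6- neurons. In normalized counts Derl3 was the lowest derlin in both groups. The place in Sox6+ neurons thus rests on the exon lengths, 1.993 kb for Derl3 and 8.049 kb for Derl2. Lengths are those of all annotated exons together, and reads may fall on fewer of them.

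The rest of the ERAD membrane complex lay slightly lower in Sox6+ neurons and did not pass. Sel1l, the adaptor of the complex, averaged 1027.1 ± 44.9 in Sox6+ and 1223.6 ± 190.4 in Sox6- neurons (SD, n = 3 each). Syvn1, the ubiquitin ligase, averaged 188.5 ± 9.09 in Sox6+ and 232.9 ± 51.6 in Sox6- neurons. Herpud1, a stress-induced membrane protein that binds the ligase, averaged 2480.9 ± 470.6 in Sox6+ and 2848.7 ± 191.2 in Sox6- neurons. Their log2 differences lay between -0.28 and -0.21. All 3 overlapped between the groups, and the derlins spanned the whole range of the complex, from -0.44 for Derl1 to 2.90 for Derl3.

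**Figure D2:**
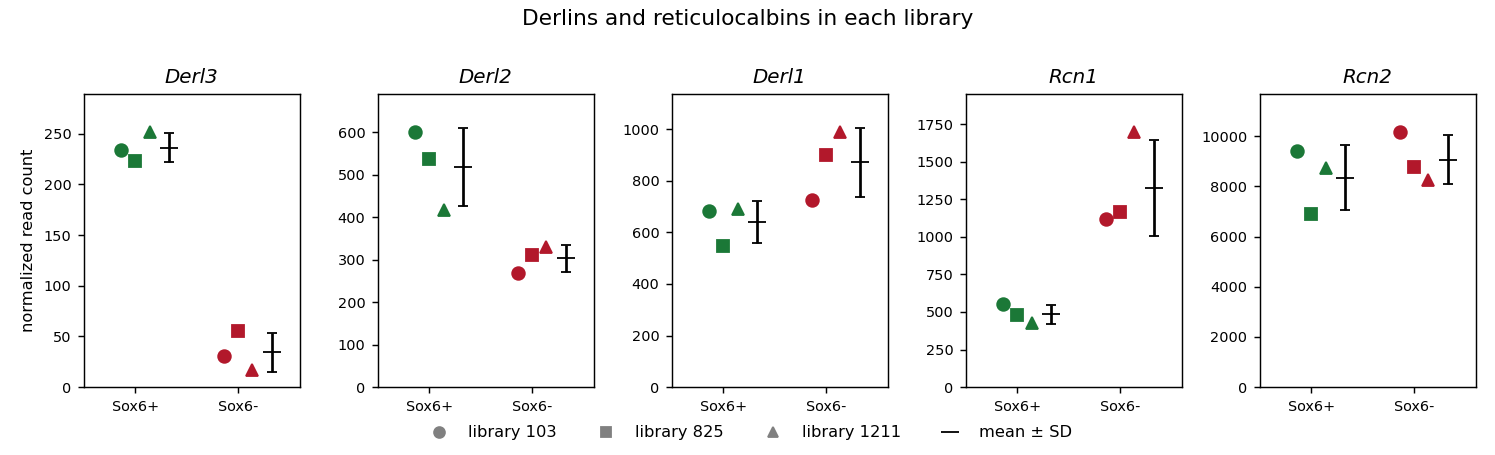
Normalized read count in each library for 3 derlins and 2 reticulocalbins, with Sox6+ libraries in green left of Sox6- libraries in red, marker shapes for the library numbers, and the mean ± SD in black (3 libraries per group). The groups stand apart for Derl3, Derl2, Derl1 and Rcn1 and overlap for Rcn2.

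Rcn1, reticulocalbin 1, is an EF-hand calcium-binding protein of the CREC family and was the only other member past the threshold. It had 550.5, 482.8 and 424.2 normalized counts in Sox6+ libraries and 1119.6, 1163.2 and 1695.4 in Sox6- libraries. No Sox6+ value came near the lowest Sox6- value, and the highest of all was Sox6- library 1211. On the log2 scale Rcn1 differed by -1.43 (standard error 0.212, 95% confidence interval -1.91 to -0.95, adjusted p = 0.0345, limma), a 2.69-fold higher level in Sox6- neurons. Over the alternatives it ran from -1.63 to -1.14, and 12 of 21 called it. EdgeR on recovered reads gave an adjusted p of 0.0697. The call was lost without Sox6+ library 825 or 1211 or without Sox6- library 825 or 1211, at adjusted p between 0.056 and 0.182 (limma). The fits without these libraries called 1 to 26 genes in all. In the authors' deposited table its adjusted p was 8.26e-07.

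Its relative Rcn2 did not pass the test. Rcn2 had 9392.7, 6907.3 and 8731.9 normalized counts in Sox6+ libraries and 10155.7, 8786.6 and 8261.6 in Sox6- libraries, and the groups overlapped. The log2 difference was -0.13 with a 95% confidence interval from -0.47 to 0.21, which does not reach the interval for Rcn1. Per kb of exon, Sox6+ neurons held 152.0 of Rcn1 and Sox6- neurons 414.9, while Sox6+ neurons held 1758.5 of Rcn2 and Sox6- neurons 1911.1. The gene for Rcn1 is at chr2:105386291-105399319, minus strand (GRCm38).

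Beyond the called genes, several members had groups that did not overlap without passing the test. Of 40 members, 8 had all 3 Sox6+ values below all 3 Sox6- values (20.0%), where 9.19% of all tested genes did: Rcn1, Derl1, Hspa5, Hsp90b1, Pdia6, Creld2, Ero1lb and Ufd1l. All Sox6+ values lay above for 4 members (10.0%), where 7.86% of all tested genes did: Derl3, Derl2, Ddit3 and Eif2ak3. Without Sox6+ library 825, the same 8 genes had no overlap on the lower side, beside 14.3% of all tested genes, and 6 members had none on the higher side, beside 12.1%. At an unadjusted p under 0.05 there were 6 lower members (6.17% of all tested genes) and 3 higher ones (5.21%).

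Hspa5, BiP, is the main Hsp70 chaperone of the ER lumen and had the highest level per kb of all members as a mean over both groups, though Pdia3 was higher in Sox6+ neurons. It had 11399.3, 8865.9 and 9305.8 normalized counts in Sox6+ libraries and 12251.8, 11736.3 and 12861.7 in Sox6- libraries. The groups did not overlap, though Sox6+ library 103 came close to the Sox6- values. The log2 difference was -0.33 (95% confidence interval -0.62 to -0.03, adjusted p = 0.407, limma), a 1.25-fold higher level in Sox6- neurons.

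Hsp90b1, the Hsp90 of the ER, followed the same order of libraries within the Sox6+ group. Its 9355.2, 7857.0 and 8152.5 normalized counts in Sox6+ libraries lay below the 9960.9, 9731.2 and 10907.6 of Sox6- libraries. The difference of -0.27 on the log2 scale did not pass (adjusted p = 0.447, limma). Pdia6, a protein disulfide isomerase that works with BiP, had 3602.8, 3015.3 and 3294.4 in Sox6+ libraries and 3827.8, 4266.9 and 5470.9 in Sox6- libraries. It too was separated, and its log2 difference was -0.44 (adjusted p = 0.358, limma).

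Creld2, an ER stress-induced protein that acts on disulfide bonds, had the smallest p among the chaperones. It had 442.9, 310.9 and 348.4 normalized counts in Sox6+ libraries and 613.0, 534.8 and 615.8 in Sox6- libraries. Its groups stood well apart, with a log2 difference of -0.69 (95% confidence interval -1.17 to -0.21, adjusted p = 0.265, limma). Ero1lb, the oxidase ERO1 beta that reoxidizes disulfide isomerases, had 111.5, 56.9 and 84.1 in Sox6+ libraries and 134.3, 163.1 and 151.2 in Sox6- libraries. All its Sox6+ values were lower, at a log2 difference of -0.87 (95% confidence interval -1.70 to -0.04, adjusted p = 0.42, limma).

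Of these lower members, all but Rcn1 had their lowest value in Sox6+ library 825, the library with macrophage transcripts. Across all 40 members that library was the lowest of the 6 for 16, and it was the lowest for 28.4% of all tested genes. Of the same lower members, all but Ero1lb had their highest value in Sox6- library 1211. Sox6- library 1211 was the highest of the 6 for 13 of the 40 members and for 18.2% of all tested genes. The members together took 0.796%, 0.677% and 0.704% of the values of Sox6+ libraries 103, 825 and 1211, against 0.833%, 0.786% and 0.846% of Sox6- libraries. Without Sox6+ library 825 the median difference of the members was 0.00, and without both libraries numbered 825 it was 0.02. The part of the other transcripts of Sox6+ library 825, or of Sox6- library 1211, in these differences was not tested.

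Of the remaining chaperones, none passed the test and all but Hyou1 lay near 0. Dnajb11, a J-domain partner of BiP, Dnajb9 and Dnajc3, another such pair, and the BiP-binding proteins Manf and Sdf2l1 had log2 differences between -0.12 and 0.21. Manf, named as a neurotrophic factor for dopamine neurons, averaged 1402.6 ± 143.6 in Sox6+ and 1503.7 ± 76.6 in Sox6- neurons (SD, n = 3 each). Its difference of -0.10 had a 95% confidence interval from -0.44 to 0.23. Hyou1, a nucleotide exchange factor for BiP, varied between libraries, at 34.8 ± 19.7 in Sox6+ and 56.0 ± 30.2 in Sox6- neurons, with a log2 difference of -0.68 (95% confidence interval -2.11 to 0.75).

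The lectin chaperones lay close to 0. Calr, calreticulin, had 3564.3, 3840.8 and 3932.1 normalized counts in Sox6+ libraries and 3909.3, 4100.8 and 4170.7 in Sox6- libraries. The groups overlapped only by Sox6+ library 1211 lying just above Sox6- library 103, and the log2 difference was -0.10 (95% confidence interval -0.38 to 0.17). Canx, calnexin, averaged 9979.3 ± 1001.3 in Sox6+ and 9870.2 ± 1597.0 in Sox6- neurons. Among the other disulfide enzymes, Pdia3, the isomerase that works with the lectin chaperones, averaged 8275.2 ± 148.1 in Sox6+ and 7806.2 ± 520.4 in Sox6- neurons. P4hb, the founding disulfide isomerase, averaged 1838.7 ± 270.5 in Sox6+ and 1883.5 ± 465.6 in Sox6- neurons. Pdia4, Dnajc10, a disulfide reductase with a J domain, and Ero1l, the oxidase ERO1 alpha, had log2 differences of -0.47, -0.15 and 0.20.

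The ERAD lectins, which read trimmed sugars on misfolded proteins, did not pass, and 4 of the 5 differed by less than 0.16. Edem1, a mannosidase-like protein that speeds glycoprotein disposal, had 90.8, 74.0 and 103.5 normalized counts in Sox6+ libraries and 38.4, 80.6 and 12.1 in Sox6- libraries. Sox6- library 825 lay within the Sox6+ range and the other 2 Sox6- libraries below it, the same order of Sox6- libraries as for Derl3. Edem1 differed by 1.37 on the log2 scale (95% confidence interval -0.14 to 2.87, adjusted p = 0.473, limma). Os9 and Erlec1, lectins that hand substrates to SEL1L, followed with small differences. Os9 averaged 950.8 ± 140.0 in Sox6+ and 848.0 ± 82.8 in Sox6- neurons, and Erlec1 averaged 667.4 ± 31.5 in Sox6+ and 623.8 ± 199.7 in Sox6- neurons. Edem2 and Edem3 had differences of -0.14 and -0.11.

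In the extraction step, Vcp averaged 3515.3 ± 316.4 in Sox6+ and 3257.8 ± 217.6 in Sox6- neurons (SD, n = 3 each). Its cofactor Nploc4 averaged 249.9 ± 6.29 in Sox6+ and 267.3 ± 45.3 in Sox6- neurons. Ufd1l, the other cofactor, had 2247.3, 1901.6 and 2234.5 normalized counts in Sox6+ libraries and 2355.2, 2684.8 and 2901.0 in Sox6- libraries. Its groups did not overlap, and the log2 difference was -0.31 (adjusted p = 0.454, limma).

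Among the UPR genes, Ddit3 and Atf4 lay higher in Sox6+ neurons without passing the threshold. Ddit3, the transcription factor CHOP that PERK signalling induces, had 1489.6, 1660.2 and 1427.7 normalized counts in Sox6+ libraries and 1127.2, 1110.8 and 920.9 in Sox6- libraries. The groups were clearly separated, at a log2 difference of 0.54 (95% confidence interval 0.18 to 0.89, adjusted p = 0.236, limma). Atf4, the transcription factor upstream of Ddit3, had 1784.6, 2146.4 and 1496.1 in Sox6+ libraries and 1410.2, 1555.9 and 1079.5 in Sox6- libraries. Its groups overlapped, since Sox6- library 825 lay above Sox6+ library 1211. Atf4 differed by 0.42 on the log2 scale (95% confidence interval -0.01 to 0.86, adjusted p = 0.45, limma).

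The sensors were among the members of low level per kb. Eif2ak3, PERK, had 124.3, 314.3 and 118.3 normalized counts in Sox6+ libraries and 110.3, 70.5 and 103.9 in Sox6- libraries. The groups did not overlap, and Sox6+ library 825, the one with macrophage transcripts, was far above the other 5. The log2 difference was 0.83 with it (adjusted p = 0.508, limma) and 0.38 without it (adjusted p = 0.813, limma). Atf6 had 45.4, 141.2 and 92.4 in Sox6+ libraries and 207.2, 67.5 and 88.1 in Sox6- libraries, overlapping throughout, with a log2 difference of -0.35 (95% confidence interval -1.60 to 0.90). Ern1, IRE1 alpha, was below the minimum for testing, at 8.88, 0 and 23.1 in Sox6+ libraries and 3.84, 11.1 and 5.56 in Sox6- libraries. These rest on 34 reads in the Sox6+ libraries and 21 reads in the Sox6- libraries.

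Xbp1, whose mRNA is spliced by IRE1 alpha and whose total level is counted here, lay close to 0 in its difference. It had 5274.9, 4020.7 and 4277.7 normalized counts in Sox6+ libraries and 4671.1, 4374.7 and 4059.4 in Sox6- libraries, overlapping fully. Xbp1 differed by 0.04 on the log2 scale, with a 95% confidence interval from -0.28 to 0.37. Spliced and unspliced Xbp1 are not separated in gene counts. Atf6b, a relative of Atf6, averaged 202.4 ± 43.7 in Sox6+ and 184.8 ± 18.9 in Sox6- neurons (SD, n = 3 each).

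**Figure D3:**
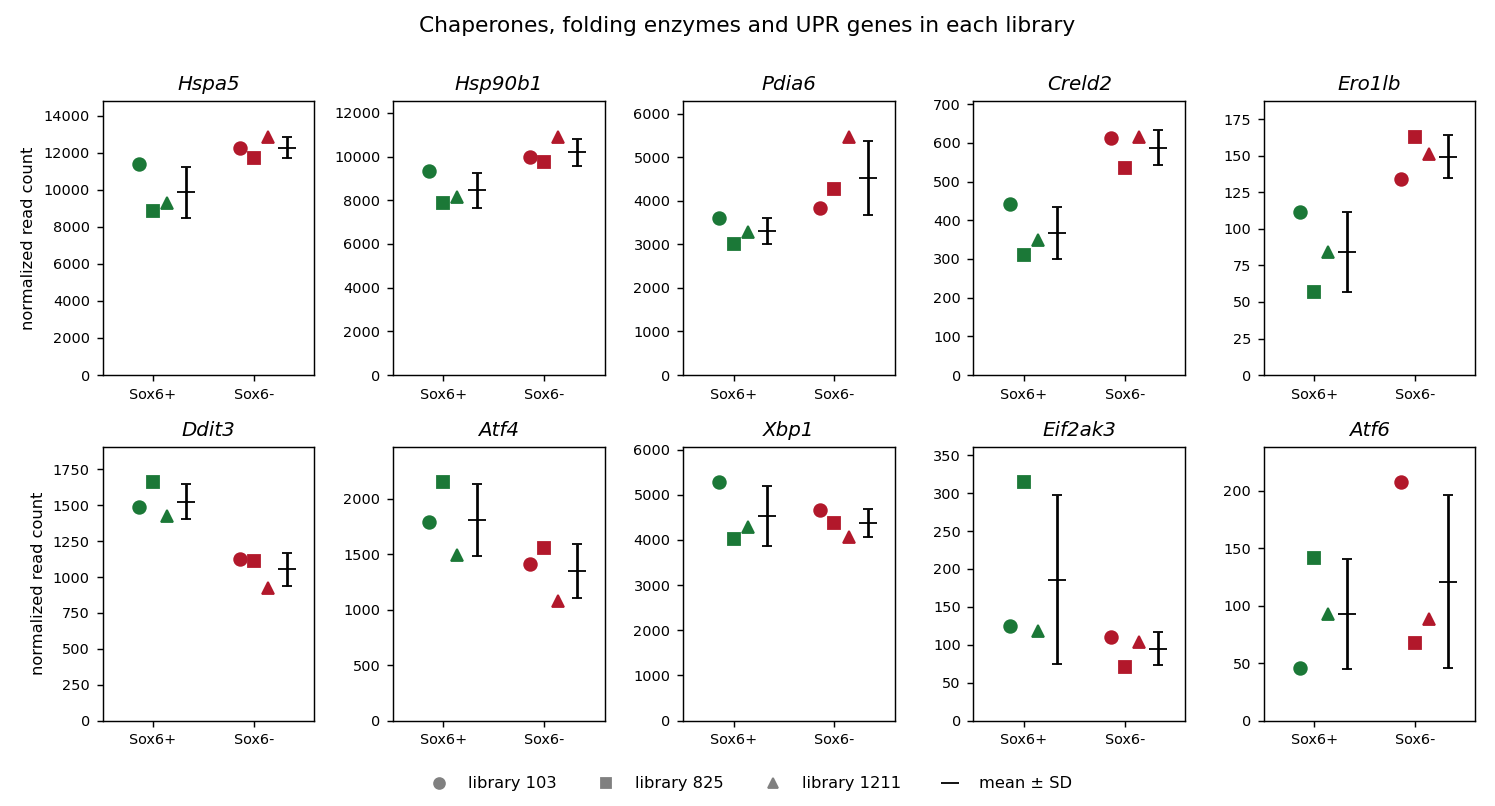
Normalized read count in each library for 5 chaperones and folding enzymes (top) and 5 UPR genes (bottom), Sox6+ in green left of Sox6- in red, with marker shapes for the library numbers and the mean ± SD in black (3 libraries per group). The 5 upper genes and Ddit3 have groups that do not overlap, Xbp1 and Atf6 overlap, and the Sox6+ mean of Eif2ak3 is raised by library 825 at 314.3.

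The members spanned a wide range of levels per kb of annotated exon. Hspa5, Pdia3, Hsp90b1 and Canx were the highest, at 2330.8, 2636.3, 2096.9 and 2126.4 in Sox6+ neurons and 2904.5, 2486.8, 2529.7 and 2103.2 in Sox6- neurons. Ern1, Hyou1, Edem1 and Atf6 were the lowest, at 1.30, 4.81, 13.9 and 10.1 in Sox6+ neurons and 0.835, 7.74, 6.77 and 13.1 in Sox6- neurons. Transcripts of Hspa5, Pdia3, Hsp90b1 and Canx thus stood far above those of the sensors and of the ERAD lectin Edem1 in both groups.

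**Figure D4:**
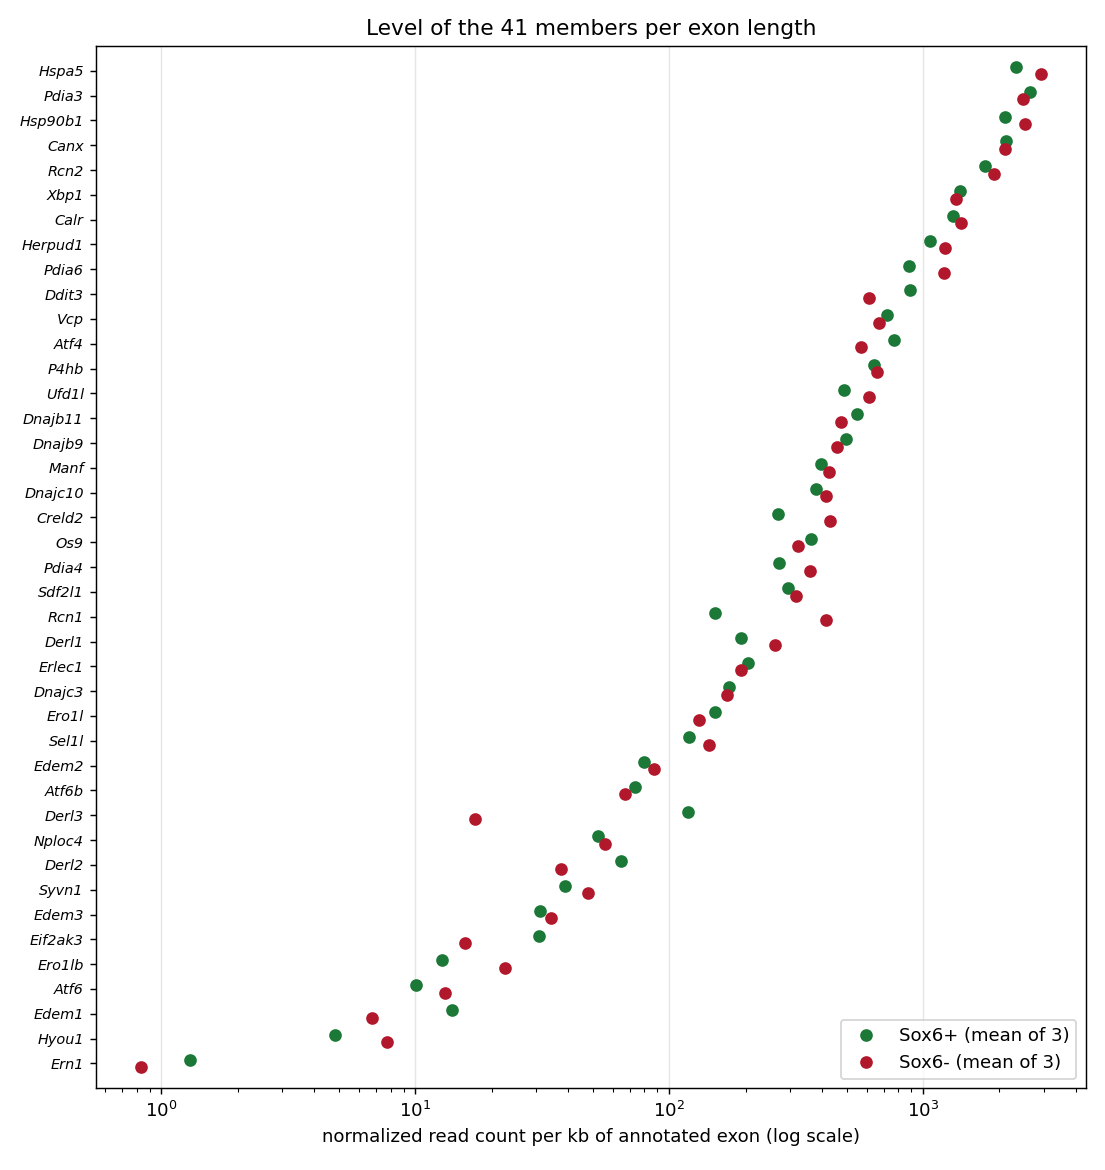
Mean normalized read count per kb of annotated exon on a log axis for all 41 members, Sox6+ in green and Sox6- in red (3 libraries each), ordered by the mean over both groups. Ern1 is at the low end and Hspa5 at the high end, and the dots of the groups lie farthest apart for Derl3, at 118.5 in Sox6+ and 17.2 in Sox6- neurons.

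The promoters of several members share the ERSE. RefSeq promoters (GRCm38.p6, 250 bases before to 50 after the start) were found for 35 of 41 members, all but Derl1, Erlec1, Atf6, Manf, Hyou1 and Rcn1. The ERSE was present in 10 of the 35 (28.6%), where 0.137% of 27025 genes with a promoter held it. Members of this kind are the genes in which the element was defined, so the share is not independent of how such lists are drawn up. The matches are shown because the genes that hold them include Derl3, Hspa5 and Hsp90b1, described above. Each is read 5′ to 3′ on the strand on which CCAAT comes first, with the element in capitals and 12 bases on either side.
Derl3, chr10:75893230-75893272, minus strand: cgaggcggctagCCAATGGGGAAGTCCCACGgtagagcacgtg
Hspa5, chr2:34772013-34772055, plus strand: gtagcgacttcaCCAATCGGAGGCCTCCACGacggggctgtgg
Hsp90b1, chr10:86705521-86705563, plus strand: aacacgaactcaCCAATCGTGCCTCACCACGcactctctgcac
Hsp90b1, chr10:86705626-86705668, minus strand: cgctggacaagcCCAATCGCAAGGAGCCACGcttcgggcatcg
Pdia6, chr12:17266479-17266521, plus strand: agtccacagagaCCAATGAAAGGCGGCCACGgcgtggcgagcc
Creld2, chr15:88819508-88819550, minus strand: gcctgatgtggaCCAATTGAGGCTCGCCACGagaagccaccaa
Ero1lb, chr13:12565670-12565712, minus strand: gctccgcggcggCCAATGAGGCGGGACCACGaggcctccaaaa
Calr, chr8:84847063-84847105, plus strand: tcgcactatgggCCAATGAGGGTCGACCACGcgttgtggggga
Canx, chr11:50325788-50325830, minus strand: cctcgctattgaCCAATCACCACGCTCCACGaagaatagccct
Dnajc3, chr14:118937815-118937857, plus strand: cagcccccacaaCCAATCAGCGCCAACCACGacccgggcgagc
Syvn1, chr19:6046520-6046562, plus strand: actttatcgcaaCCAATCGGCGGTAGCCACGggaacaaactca

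The element lay between 212 and 26 bases before the start in these genes. Of the 10 members that held it, 5 had all Sox6+ values below all Sox6- values (Hspa5, Hsp90b1, Pdia6, Creld2 and Ero1lb), with a median log2 difference of -0.28 over the 10. Over all tested genes, 9.19% had all Sox6+ values lower and the median was -0.02. All 5 had their lowest value in Sox6+ library 825, the one with macrophage transcripts, and all but Ero1lb their highest in Sox6- library 1211. The part of these libraries was not tested. Of the 24 tested members with a promoter and no match, 1 had all Sox6+ values below all Sox6- values (Ufd1l), with a median of 0.06 over the 24. Derl3 holds the element and lay far higher in Sox6+ neurons. Calr, Canx and Dnajc3 hold it and had log2 differences of -0.10, 0.02 and 0.02. Syvn1 holds it too, at -0.28, with groups that overlapped. This grouping was made after the values were seen and has no test. The other 9 tested genes with the element in their promoter had a median of -0.40 and none with groups apart in either direction.

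**Figure D5:**
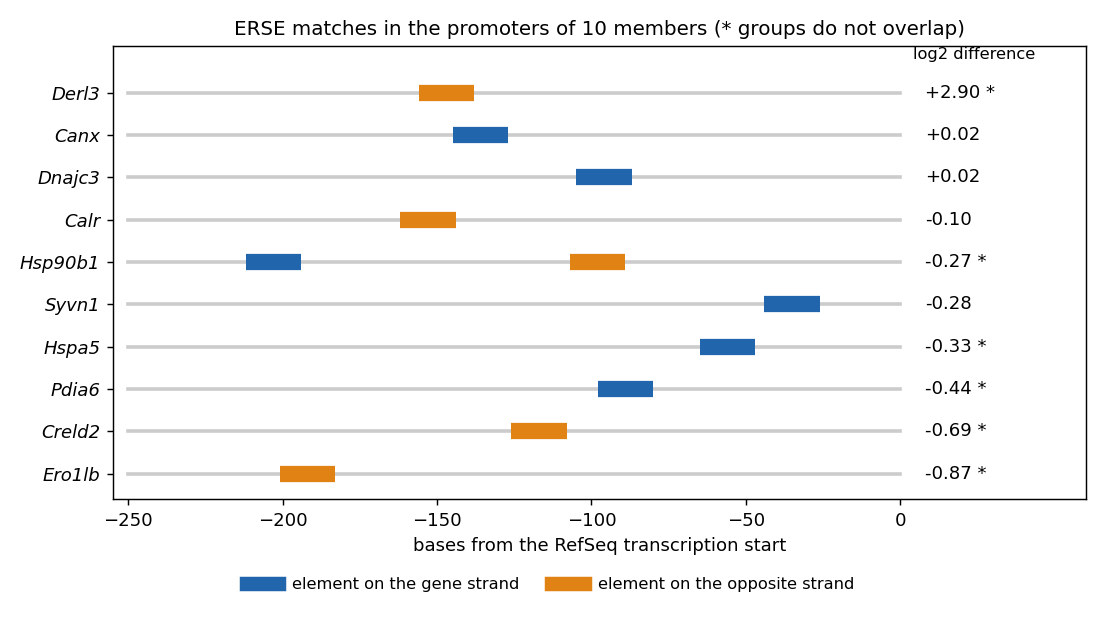
Position of the ERSE match in the 250 bases before the RefSeq start of 10 members, in blue on the gene strand and orange on the opposite strand, with the log2 difference of Sox6+ minus Sox6- neurons at the right. Derl3, at 2.90, heads the order, and 5 of the 10 genes have negative differences with groups that do not overlap, marked by an asterisk as for Derl3.

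Other ER stress motifs were rare in these windows. The ERSE-II, searched as ATTGG, 1 base of any kind and CCACG, was found in Herpud1 and Dnajb11, 2 of 35 members (5.71%), beside 0.0444% of all genes. The UPR element core TGACGTGG was found in Vcp only (2.86%, beside 0.714% of all genes), and the CHOP and ATF4 element TGATGNAA in Herpud1 only (2.86%, beside 4.5%). All were searched on both strands, and no match says only that these letters are not in this window.

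Further ER genes were read in 5 lists: glycan trimming, other folding enzymes, other ERAD genes, stress response outputs, and translocation with N-glycosylation. The limma fit used above called none of their 131 tested genes, where it called 0.304% of all tested genes. At an unadjusted p under 0.05 there were 2 higher (5.21% of all tested genes) and 4 lower (6.17%). EdgeR called none of the 131, and 6 genes in all without the replicate block. DESeq2 on recovered reads called 2 lower, Man1a and Tusc3, which are named here after their values were seen. It called 387 of all 13175 tested genes. Limma with library weights called Man1a, and 206 genes in all. In the authors' deposited table the adjusted p was 0.00193 for Man1a and 0.0221 for Tusc3. Man1a, a mannosidase that trims N-glycans in the early secretory pathway, averaged 9.73 ± 5.64 in Sox6+ and 94.4 ± 45.8 in Sox6- neurons (SD, n = 3 each), at a log2 difference of -3.13 (adjusted p = 0.144, limma). Tusc3, a subunit of the oligosaccharyltransferase, averaged 4053 ± 257.3 in Sox6+ and 5884 ± 754.9 in Sox6- neurons (SD, n = 3 each, adjusted p = 0.194, limma). The median difference was 0.01 over the 131 genes, and 0.02 over the 31 stress response outputs, among them Atf3, a stress-induced transcription factor, and Ppp1r15a, which reverses the translation block set by PERK.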

How the data were processed

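The authors deposited 1 table of 23337 gene symbols. It holds a normalized signal in 6 library columns, and from the authors' DESeq2 test a mean signal, a log2 fold change (Sox6- relative to Sox6+), a test score, p-values and adjusted p-values. Libraries were stranded and poly(A)-selected, per the labels' protocols. Tools listed in the submitters' processing notes are FastQC, cutadapt, STAR, HTSeq and DESeq2, with builds mm10 and GRCm38. Their settings are not stated in what was used here. In each library the deposited values were whole multiples of what 1 read is worth (0.92411 to 1.1387), for 100% of values within 0.01, so reads were recovered as counts for the count tests.

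Groups came from the sample titles. Genes with a mean of at least 10 (13175) were tested with limma 3.58.1 in R 4.3.3 on log2(value + 1), using its trend and robust options, 2-sided, and adjusted by Benjamini-Hochberg over all of them at 0.05. Alternatives were edgeR 4.0.16 and DESeq2 1.42.0 on recovered reads, the library number as a block, pseudocounts, filters, normalizations, library weights and leaving out libraries. Scripts were tested on simulated data. Replicates differed by more than sampling noise, so none was counted as a copy. The members, lists and tests were chosen with earlier results of these data known. Values per library are given for members past the threshold in these tests or in the authors' table, for Hspa5 and 6 UPR genes, and for the member of smallest p in each role. Derl1, Derl2, Rcn2, Hsp90b1 and Ero1lb were added after their values were seen. Positions and exon lengths come from GENCODE M21.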

Additional observations from a re-analysis of the deposited data

How the results depend on the processing

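The member called higher, Derl3, was no longer called (0 genes) with a pseudocount of 0.5, with no filter on low values, with TMM normalization, without trend and robust moderation, and with edgeR with or without the replicate block. The member called lower, Rcn1, was no longer called (0 genes) with no filter, without trend and robust moderation, and with edgeR without the block. Over all tested genes the main fit called 40. The pseudocount of 0.5 called 38, no filter 21, TMM 39, and limma without trend and robust moderation 24. EdgeR called 6 genes without the block and 120 with it. With the replicate block limma called both members, 1 higher and 1 lower, Derl3 at an adjusted p of 0.0177 and Rcn1 at 0.0109. It called 267 genes in all. Leaving out libraries, singly or by number, the members called ran from 0 to 1 in each direction. In those fits the genes called in all ran from 1 to 162. Both genes kept their direction in all 21 settings. The members' median difference ran from -0.12 to 0.02 over the settings and was above 0 without Sox6+ library 825 (0.00) and without both libraries numbered 825 (0.02). Without Sox6+ library 825, an alternative chosen after the data were seen, 6 members had no overlap on the higher side and 8 on the lower. The library numbers were not taken as pairs: deviations of same-numbered libraries correlated at 0.268, 0.172 and 0.079 for 103, 825 and 1211, and each library correlated best with its own number, a hint from the data and not from the design. Depth limits Ern1, at 34 reads in Sox6+ and 21 in Sox6- libraries. The causes of the lost calls were not tested.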
